A study of Mus musculus with 8 samples.

Results

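The 9 genes described here encode the angiopoietin ligands Angpt1 and Angpt2 with their receptors Tek and Tie1, the peptide ligand Apln with its receptor Aplnr, the adrenomedullin receptor Calcrl with its partner Ramp2, and the endothelial secreted proteoglycan Esm1. They were found by name in the deposited table of RNA sequencing signal for 13677 genes, and all 9 were present and were tested. The libraries were made from poly(A) RNA of mouse ventricular heart tissue. The series sets ventricles described as lacking Vhl beside ventricles described as wild-type, in mice with a Wt1-Cre transgene. Wt1 is a gene of the epicardium, and Vhl encodes the recognition subunit of the ubiquitin ligase that marks hypoxia-inducible factors for degradation. The labels name the groups C (n = 3), KO (n = 2, numbered 1 and 3) and DKO (n = 3); they do not spell these names out, do not say which second change DKO carries, and give no strain, age, sex, floxed allele or share of cells in which Cre acted. Nothing in the labels says that the libraries came from separate animals, so p-values measure the spread between these libraries, which may be technical.

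The libraries held 17212475 to 17648456 reads in C, 18506002 and 21202385 in KO, and 15028176 to 20561196 in DKO. Mitochondrial genes took 41.6% of reads in DKO 2, 16.2% and 17.4% in the KO libraries, and 22.9% to 29.9% in the rest. Vhl mRNA was not lower in KO or DKO than in C. Its signal was 7.26 to 8.97 in C, 8.33 and 8.96 in KO and 8.61 to 11.2 in DKO, and KO differed from C by 0.12 ± 0.18 (SE) in log2 (limma, adjusted p = 0.71). These values are per gene, so a deletion of part of the gene or in few of the cells cannot be read from them. Wt1 was 2.42 to 4.73 in C, 7.02 and 7.62 in KO and 3.60 to 6.46 in DKO. It was higher in KO than in C by 0.94 ± 0.26 (SE) in log2 (limma, adjusted p = 0.0302). That call held in 11 of 16 other settings. DKO differed from C by 0.44 in log2 without a call (limma, adjusted p = 0.61). Directions below are therefore directions between libraries labelled C, KO and DKO. Levels are deposited signal, in reads scaled to a common library size. The scaled size was 0.925 to 0.964 times the total reads in C, 1.37 and 1.36 in KO and 0.705 to 1.06 in DKO. Levels per total read would therefore stand differently between the groups. Changes are differences of log2(signal + 1). A fold is 2 to the power of such a change, which understates the change of low genes. Changes were called at an adjusted p of 0.05 over 13544 genes. In whole tissue, fewer cells of a type and less RNA per cell cannot be told apart.

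Angiopoietin signalling controls how firmly the cells of a vessel hold together. Angpt1, made mainly by cells around the endothelium, activates the receptor tyrosine kinase Tek (Tie2), while Angpt2 is made by endothelial cells and can oppose it; Tie1 is the orphan partner of Tek. Endothelial tip cells, which lead a sprouting vessel, express Esm1, Angpt2 and Apln, whereas Aplnr is found on other endothelial cells. Calcrl becomes a receptor for adrenomedullin when it pairs with the accessory protein Ramp2. Apln, Esm1, Angpt2 and the adrenomedullin gene Adm are known to respond to low oxygen in endothelial or other cells.

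Per length, Tie1, Ramp2, Aplnr and Tek were the most abundant of the 9 genes, and the angiopoietins and Esm1 the least. The mean signal per kilobase of the longest annotated transcript, over all 8 libraries, was 37.5 for Tie1, 35.1 for Ramp2, 17.3 for Aplnr and 11.4 for Tek. It was 4.72 for Apln, 4.20 for Calcrl, 2.27 for Angpt1, 1.37 for Esm1 and 0.956 for Angpt2. In C the ranges of mean ± SD overlapped for the neighbours Tie1 (36.9 ± 5.69 per kilobase, SD, n = 3) and Ramp2 (33.8 ± 6.23), for Aplnr (15.3 ± 4.002) and Tek (11.6 ± 3.67), for Calcrl (4.14 ± 1.27) and Apln (3.11 ± 0.249), and for Angpt2 (0.842 ± 0.444) and Esm1 (0.619 ± 0.294). In KO Esm1, at 3.66 ± 1.82 per kilobase (n = 2), stood above Angpt1 (1.22 ± 0.588) and Angpt2 (0.871 ± 0.247). Apln (8.41 ± 0.705) stood above Calcrl (5.35 ± 0.416) and lay beside Tek (8.86 ± 0.834). Ramp2 (35.6 ± 5.71) stood above Tie1 (30.1 ± 1.87), with overlapping ranges of mean ± SD.

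**Figure D1:**
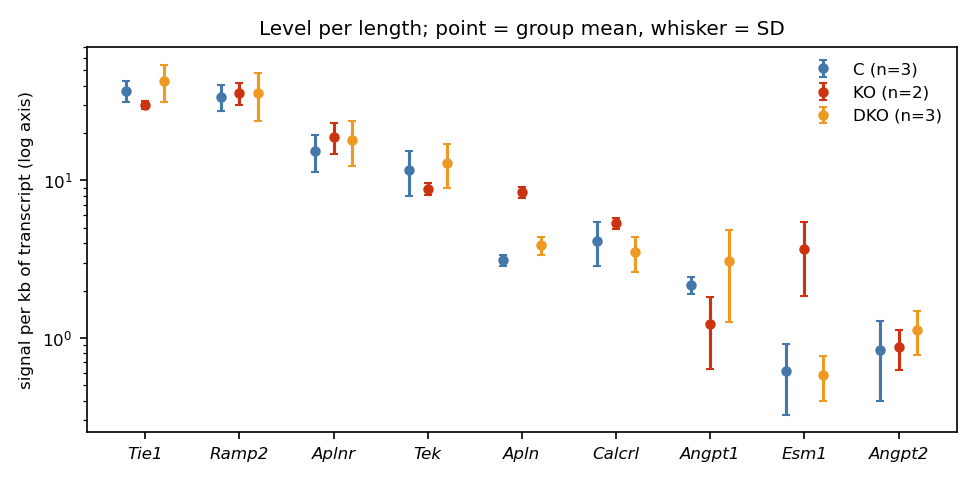
Signal per kilobase of the longest annotated transcript (log axis) for the 9 genes, ordered by their mean over 8 libraries; points are group means and whiskers are SD. Tie1 (37.5 over all libraries) and Ramp2 (35.1) lead, and Apln and Esm1 stand higher in KO than in C or DKO.

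Esm1 and Apln rose in the libraries labelled KO, and the other 7 genes had no call in any of the 3 comparisons. Esm1 (chromosome 13, 113209659 to 113218098, plus strand, GRCm38), which encodes the secreted proteoglycan endocan, had a signal of 0.949, 0.934 and 2.01 in C 1, C 2 and C 3, of 10.4 and 4.97 in KO 1 and KO 3, and of 0.896, 1.65 and 1.12 in DKO 1, DKO 2 and DKO 3. These values rest on 15 to 32 reads in C, 143 and 263 in KO, and 17 to 19 in DKO. Both KO libraries lay above all 6 others. They differed from each other more than the C libraries did by difference of signal, though not by ratio. The rise from 1.297 ± 0.616 in C to 7.67 ± 3.82 in KO was 1.88 ± 0.31 (SE) in log2, or 3.67-fold (limma, adjusted p = 0.00282). On whole reads, without the added 1, edgeR gave 6.02-fold (adjusted p = 0.00297). DKO, at 1.22 ± 0.387, was lower than KO by a log2 change of -1.90 ± 0.31 (SE) (limma, adjusted p = 0.00341) and differed from C by -0.03 (95% interval -0.63 to 0.57; limma, adjusted p = 0.98).

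Apln (chromosome X, 48025146 to 48034853, minus strand), the gene of the apelin peptides, had a signal of 10.3, 8.89 and 10.2 in C, of 28.0 and 24.9 in KO, and of 10.4, 13.3 and 12.9 in DKO. The KO libraries again lay above all others, here close together, and rested on 712 and 718 reads. The rise from 9.79 ± 0.783 to 26.5 ± 2.22 was 1.35 ± 0.17 (SE) in log2, or 2.55-fold (limma, adjusted p = 0.000824). DKO, at 12.2 ± 1.55, was lower than KO by a log2 change of -1.06 ± 0.17 (SE) (limma, adjusted p = 0.00313). Each DKO library lay above the highest C library, as in 6.5% of all tested genes (7.25% lay below, 13.8% did either), but DKO and C differed by 0.28 with a 95% interval of -0.04 to 0.61 (limma, adjusted p = 0.62).

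Of all tested genes, 13.9% were called between KO and C, 6.9% higher and 7.01% lower in KO, beside 2 of the 9 genes here, both higher. Between DKO and KO 11.8% were called, 6.08% higher and 5.73% lower in DKO, beside 2 of 9, both lower; these comparisons share the KO libraries and are not independent. Between DKO and C 0.155% of genes were called (0.0738% higher and 0.0812% lower), beside 0 of 9 in limma, edgeR and DESeq2. An unadjusted p under 0.05 in limma was reached by 0 of 9, beside 1151 of all 13544 tested genes. The median change over the 9 genes was 0.11 between KO and C, beside 0.01 over all tested genes, and -0.03 between DKO and KO, beside 0.01. The calls of Esm1 and Apln held in each of 16 other settings in both comparisons, with adjusted p up to 0.0461 for Esm1 (DKO against KO without KO 1) and up to 0.0378 for Apln (the same). Without DKO 2, Esm1 changed by 1.88 between KO and C (limma, adjusted p = 0.00227) and Apln by 1.35 (limma, adjusted p = 0.000484).

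**Figure D2:**
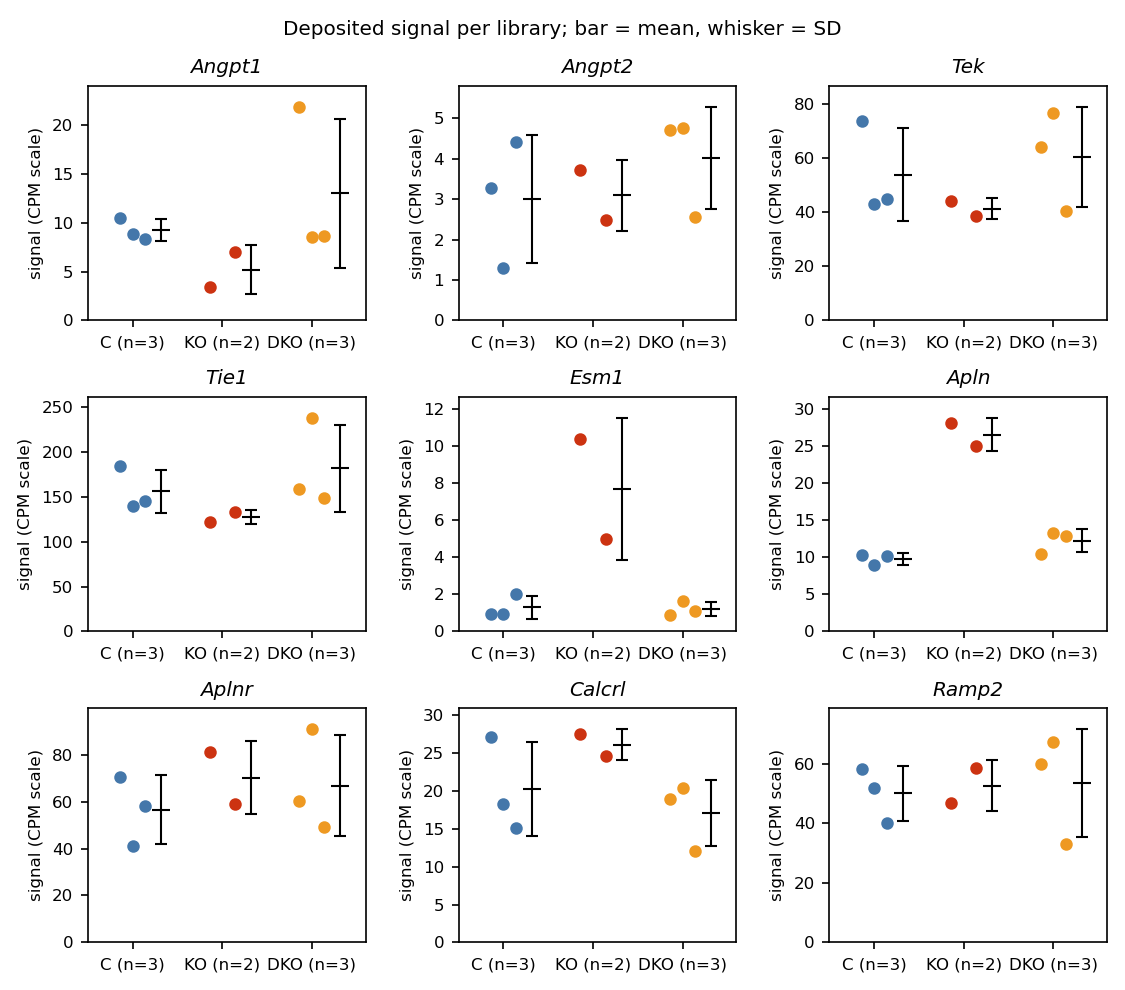
Deposited signal (scaled reads) of each gene in each library of C (n = 3), KO (n = 2) and DKO (n = 3); dots are libraries, the bar is the group mean and the whisker its SD. Esm1 (10.4 and 4.97) and Apln (28.0 and 24.9) are higher in both KO libraries than in any other, and Angpt1 (3.44 and 6.99) is lower.

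The promoter sequences of the genes that rose are shown because the series concerns Vhl, a gene of the oxygen-sensing pathway, together with that of Calcrl, which holds both motifs searched and had no call. They are from RefSeq on GRCm38.p6, 250 bases before to 50 after the start, 5′ to 3′ on the gene's strand; 5 of the 9 genes matched the table (Tek, Tie1, Esm1, Apln and Calcrl). Capitals mark ACGTG or GCGTG, the core that hypoxia-inducible factors bind, and CAGGAA, a core bound by ETS factors, each on either strand, so that CAGGAA appears as TTCCTG where it lies on the other strand. No marked stretches overlap.
Esm1, chr13:113209409-113209708, plus strand: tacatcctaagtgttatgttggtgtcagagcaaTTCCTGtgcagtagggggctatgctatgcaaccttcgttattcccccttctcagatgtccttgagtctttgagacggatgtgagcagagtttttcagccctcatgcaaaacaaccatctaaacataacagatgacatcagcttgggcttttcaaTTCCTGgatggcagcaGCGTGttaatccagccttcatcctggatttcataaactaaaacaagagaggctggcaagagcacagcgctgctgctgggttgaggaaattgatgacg
Apln, chrX:48034804-48035103, minus strand: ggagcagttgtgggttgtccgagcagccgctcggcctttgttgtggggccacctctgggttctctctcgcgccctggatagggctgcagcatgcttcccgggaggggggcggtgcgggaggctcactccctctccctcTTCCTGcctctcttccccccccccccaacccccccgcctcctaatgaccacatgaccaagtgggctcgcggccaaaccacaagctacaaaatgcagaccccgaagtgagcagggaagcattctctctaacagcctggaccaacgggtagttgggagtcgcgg
Calcrl, chr2:84425217-84425516, minus strand: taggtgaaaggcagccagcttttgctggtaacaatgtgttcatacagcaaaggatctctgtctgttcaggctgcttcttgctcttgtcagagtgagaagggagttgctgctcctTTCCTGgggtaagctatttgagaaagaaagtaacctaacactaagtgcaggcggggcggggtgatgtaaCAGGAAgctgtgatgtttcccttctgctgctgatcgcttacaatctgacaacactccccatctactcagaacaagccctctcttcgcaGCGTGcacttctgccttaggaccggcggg
The Esm1 window held 1 hypoxia core (GCGTG, from base 204 of the window) and 2 ETS cores. The Apln window held 0 hypoxia cores and 1 ETS core. The Calcrl window held 1 hypoxia core (from base 272) and 2 ETS cores. Tek and Tie1, also without a call, held 0 hypoxia cores and 2 and 1 ETS cores. Of 32851 windows of the same length, 43.8% held a hypoxia core and 30.6% this ETS core. Each matched window here held an ETS core, and those of Esm1 and Calcrl a hypoxia core. Whether this differs from the share over all windows was not tested, and a match alone marks no binding.

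Angpt1 had a lower signal in both KO libraries than in the other 6, but its change did not pass the test. Angpt1 had 87 unscaled reads in KO 1 and 201 in KO 3, beside 135 to 171 in C, so the place of KO 3 rests on the scaling. Its signal (chromosome 15, 42424723 to 42676977, minus strand) was 10.5, 8.83 and 8.37 in C, 3.44 and 6.99 in KO, and 21.9, 8.54 and 8.67 in DKO. DKO 1 was 1 library far above its group, and the other DKO libraries lay within the range of C. KO differed from C by -0.77 ± 0.35 (SE) (limma, adjusted p = 0.169), and this passed without DKO 1 (adjusted p = 0.0468) and with only C and KO in the fit (adjusted p = 0.0319). The difference between DKO and KO was 1.11 ± 0.35 (SE) (limma, adjusted p = 0.0638). It passed in DESeq2 (adjusted p = 0.0127), without DKO 2 (adjusted p = 0.0407) and without DKO 3 (adjusted p = 0.0425). Without KO 1 the KO to C difference was -0.35 (adjusted p = 0.69). An antisense gene, Gm17473, shares 737 of the 5205 exonic bases of Angpt1, and since the strand setting is not given in the sources used here their reads cannot be told apart.

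Angpt2 (chromosome 8, 18690263 to 18741562, minus strand), which lies within Mcph1 on the other strand without shared exonic bases, was low and variable. Its signal was 3.28, 1.296 and 4.42 in C, 3.72 and 2.48 in KO, and 4.71, 4.77 and 2.56 in DKO, from 21 to 102 reads. The groups overlapped throughout. KO differed from C by 0.11 (95% interval -0.64 to 0.86; limma, adjusted p = 0.87), so a change of the size seen in Apln lay outside the interval for Angpt2 while a smaller one did not. The balance of the ligands, Angpt2 signal per Angpt1 signal, was 0.312, 0.147 and 0.528 in C, 1.08 and 0.355 in KO, and 0.216, 0.558 and 0.296 in DKO. KO 1 had the highest ratio and KO 3 lay within the range of C. The log2(signal + 1) of Angpt2 minus that of Angpt1 was higher in KO than in C by 0.88 (exact permutation test, two-sided, p = 0.4). The smallest p this design allows is 0.2. Because of the added 1, this difference is not the log2 of the ratios above.

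The receptors Tie1 and Tek had no call in any comparison. Tie1 (chromosome 4, 118471191 to 118490061, minus strand) had a signal of 183.9, 139.7 and 145.2 in C, of 121.7 and 132.9 in KO, and of 159.02, 237.4 and 148.8 in DKO. In scaled signal both KO libraries lay below all others, but they held 3092 and 3834 reads of Tie1 beside 2317 to 3003 in C. That place therefore rests on the scaling. The KO to C difference was -0.28 with a 95% interval of -0.76 to 0.19 (limma, adjusted p = 0.42). Tek (chromosome 4, 94739289 to 94874976, plus strand) had 73.6, 43.2 and 44.9 in C, 43.99 and 38.5 in KO, and 63.96, 76.7 and 40.3 in DKO. The groups overlapped, and the KO to C difference was -0.34 with a 95% interval of -0.94 to 0.26 (limma, adjusted p = 0.45). Between KO and C, 4 of the 9 genes had libraries that did not overlap, Esm1 and Apln higher and Angpt1 and Tie1 lower, beside 54.3% of all tested genes (27.5% higher, 26.7% lower), so separation of the libraries alone was common. Between DKO and KO 5 of 9 did not overlap, Angpt1 and Tie1 higher and Esm1, Apln and Calcrl lower in DKO, beside 41.5% of all tested genes (20.5% higher, 21.1% lower).

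Aplnr, the receptor of apelin, showed no rise like that of its ligand beyond the spread. Its signal (chromosome 2, 85136225 to 85139923, plus strand) was 70.6, 41.1 and 58.2 in C, 81.2 and 59.2 in KO, and 60.5, 90.8 and 49.2 in DKO, and the groups overlapped. The KO to C difference was 0.32 (95% interval -0.27 to 0.92; limma, adjusted p = 0.47). The upper bound lies below the lower bound for Apln, 0.98, but the difference between the genes was not tested.

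Calcrl (chromosome 2, 84330626 to 84425411, minus strand), the seven-pass receptor of the adrenomedullin complex, had 27.2, 18.3 and 15.2 in C, 27.5 and 24.7 in KO, and 18.9, 20.3 and 12.1 in DKO. KO overlapped with C through C 1, and lay above all DKO libraries. DKO differed from KO by -0.61 ± 0.25 (SE) (limma, adjusted p = 0.136), and KO from C by 0.39 ± 0.25 (SE) (limma, adjusted p = 0.34). Ramp2 (chromosome 11, 101246028 to 101259546, plus strand) had 58.1, 51.9 and 40.01 in C, 46.7 and 58.6 in KO, and 59.9, 67.3 and 32.9 in DKO. Its groups overlapped throughout, and KO differed from C by 0.08 (95% interval -0.51 to 0.67; limma, adjusted p = 0.88). Ramp2 shares 1103 of its 3301 annotated exonic bases with Vps25 on the same strand, so its reads may be split uncertainly.

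**Figure D3:**
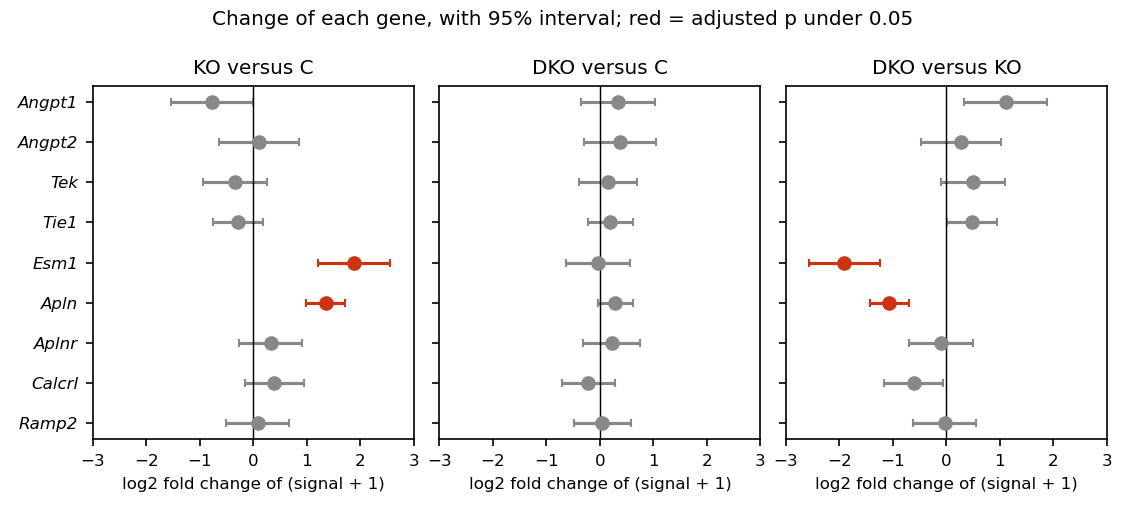
Change in log2(signal + 1) of each gene in the 3 comparisons, with limma's 95% interval; red marks an adjusted p under 0.05 over 13544 genes. Esm1 and Apln are red in KO versus C (1.88 and 1.35) and in DKO versus KO (-1.90 and -1.06), and no gene is red in DKO versus C.

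Other genes of these pathways were read from 5 lists, chosen with earlier results of these data known, so their shares are a description. The lists hold 68 distinct genes, of which 60 were tested. Between KO and C 12 rose and 1 fell, 21.7% beside 13.9% of all tested genes, with a median change of 0.37 beside 0.01. The ligand and the processing enzyme of the adrenomedullin system were among them. Adm itself went from 4.24 ± 0.301 in C to 12.6 ± 1.86 in KO, 2.59-fold (limma, adjusted p = 0.00258), and was 5.52 ± 1.51 in DKO. Pam, the enzyme that amidates adrenomedullin and other peptides, went from 190.7 ± 49.2 to 431.01 ± 20.3 (limma, adjusted p = 0.0109). In that list 2 of 9 rose and 0 fell, with Ramp1 (log2 change -0.46, limma, adjusted p = 0.35) and Ramp3 (0.44, limma, adjusted p = 0.24), the other partners of Calcrl, not past the threshold (both chosen after their values were seen).

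In the angiopoietin and Tie list 3 of 14 rose and 0 fell. Svep1, a large matrix protein that binds Tie1, went from 5.23 ± 1.44 to 16.7 ± 3.08, 2.86-fold (limma, adjusted p = 0.0027). Itga5 and Itgb1, the chains of the fibronectin receptor, went from 51.05 ± 4.01 to 95.1 ± 4.58 and from 158.9 ± 14.8 to 269.9 ± 1.33. Ptprb, the phosphatase that restrains Tek, had a change of 0.10 (limma, adjusted p = 0.81), and Foxo1, a transcription factor downstream of Tek, one of 0.17 (limma, adjusted p = 0.62); these too were chosen after their values were seen. In the apelin list 1 of 8 rose and 1 fell. Klf2, a flow-responsive transcription factor, went from 56.3 ± 9.23 to 102.4 ± 10.8, and Mme, the protease neprilysin that cleaves apelin, from 3.66 ± 0.181 to 1.03 ± 0.405.

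Among the other tip cell genes 5 of 20 rose in KO and 0 fell. They were Igfbp3, an insulin-like growth factor binding protein (24.9 ± 5.38 in C, 80.1 ± 1.84 in KO), Adm, Mcam, an adhesion molecule (32.8 ± 5.71 in C, 66.7 ± 12.6 in KO), and, named after their values were seen, the sialomucin gene Cd34 and the activin subunit gene Inhbb. The classical tip cell genes Kdr (log2 change -0.55, limma, adjusted p = 0.18), Dll4 (0.16, limma, adjusted p = 0.69) and Pdgfb (0.34, limma, adjusted p = 0.34) did not pass. These 3 were also chosen after their values were seen. In the stalk cell and Notch list 2 of 10 rose and 0 fell, the Notch target Hes1 (19.5 ± 1.52 in C, 34.2 ± 9.66 in KO) and Lfng, a glycosyltransferase that modifies Notch (4.73 ± 0.857 in C, 9.72 ± 3.59 in KO). Adm and Svep1 kept their KO to C calls in all 16 other settings, with adjusted p up to 0.0476 and 0.0387. The other KO to C calls of these lists held in fewer of the 16 settings. Igfbp3 kept its call in 14, Pam and Itgb1 in 12, and Klf2, Itga5, Hes1, Mcam and Cd34 in 11. Mme, Inhbb and Lfng kept theirs in 10. Each of these calls ended in the fit without KO 1, the fit without KO 3 or both. All but that of Igfbp3 also ended relative to endothelial markers. The number of pathway genes called differed between fits, as did the share over all genes. It was 4 without KO 1 (6.67% beside 5.78% of all tested genes), 3 without KO 3 (5% beside 3.32%), 9 without C 1 (15% beside 6.64%), 5 without C 2 (8.33% beside 7.74%) and 4 without C 3 (6.67% beside 7.27%). Relative to endothelial markers it was 3 (5% beside 2.29%), and without DKO 2 20 rose and 1 fell (35% beside 21.9%).

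**Figure D4:**
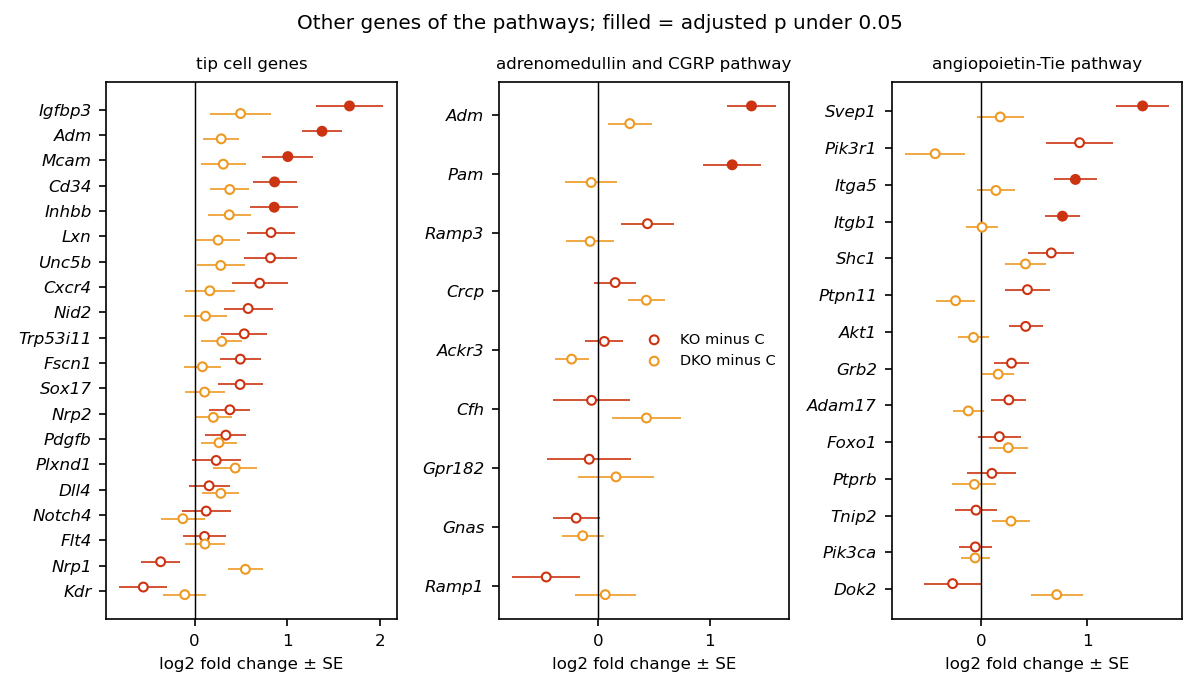
Log2 change (± SE) of the other tested genes of 3 lists, KO minus C in red and DKO minus C in orange, filled where the adjusted p was under 0.05. Adm (1.37), Pam (1.20), Svep1 (1.52) and Igfbp3 (1.67) lead their lists in KO, and no orange point is filled.

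Between DKO and KO 6 of the 60 pathway genes were lower and 3 higher in DKO, 15% beside 11.8% of all tested genes. Adm (limma, adjusted p = 0.00963), Svep1 (adjusted p = 0.00619), Pam (adjusted p = 0.0104), Itgb1 (adjusted p = 0.0145) and Itga5 (adjusted p = 0.0341) were lower, as was Pik3r1, the regulatory subunit of PI3-kinase (21.3 ± 1.48 in DKO, 61.9 ± 38.1 in KO; adjusted p = 0.0186). Higher in DKO were Nrp1, a co-receptor of VEGF (104.6 ± 21.1 in DKO, 54.3 ± 1.80 in KO), Mme and Dok2, an adaptor that binds Tek. The Notch ligand Jag1 had the smallest p of the stalk list (log2 change -0.56, limma, adjusted p = 0.12). The number of calls was 2 without KO 1 (3.33% beside 4.45% of all tested genes) and 1 without KO 3 (1.67% beside 2.47%), so the share then lay below that of all genes, and 2 rose and 14 fell without DKO 2 (26.7% beside 14.7%). Of 16 other settings, the calls of Adm, Svep1 and Pik3r1 held in 15, those of Pam and Nrp1 in 13 and that of Itgb1 in 12. The calls of Itga5 and Dok2 held in only 7 and that of Mme in 6. Dok2 lost its call with the replicate block (limma, adjusted p = 0.0902). Between DKO and C 0 of 60 pathway genes were called in limma, edgeR and DESeq2. An unadjusted p under 0.05 was reached by 4, 5 and 3 of them. Over all tested genes it was reached by 1151 and 1122 of 13544 in limma and edgeR, and by 1132 of 13533 in DESeq2. The smallest p of each list belonged to Dok2 (log2 change 0.71), Nrp1 (0.55), Crcp, a gene of a CGRP receptor component (0.43), Hes1 (0.41) and Arrb1, an arrestin gene (0.31), with limma adjusted p from 0.51 to 0.61. Without DKO 3, 1 of the 60 was called higher, 1.67% beside 0.66% of all tested genes. In that fit 24 of the 60 had an unadjusted p under 0.05 (limma), beside 2152 of all 13544 genes. The median change over the 60 was then 0.39, beside 0.18 with all 8 libraries.

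Of 15 general endothelial markers 0 rose in KO and 1, the tight junction gene Cldn5, fell (83.9 ± 25.9 in C, 39.5 ± 8.47 in KO), with a median change of 0.15 beside 0.01 over all tested genes. Their summed signal was 1160 to 1569 in C, 1340 and 1469 in KO, and 1166 to 2186 in DKO, and all 15 had reads in every library. Of 6 capillary markers 3 fell in KO and 0 rose, the carbonic anhydrase gene Car4 (36.1 ± 8.75 in C, 15.4 ± 2.16 in KO), the lipase-anchoring protein gene Gpihbp1 (130.1 ± 28.1 in C, 67.1 ± 2.01 in KO) and the fatty acid binding protein gene Fabp4 (888.9 ± 199.1 in C, 393.2 ± 83.7 in KO). The summed capillary signal was 1889 to 2721 in C, 1261 and 1291 in KO, and 1489 to 2248 in DKO. The calls of Car4, Gpihbp1, Fabp4 and Cldn5 ended without KO 1 or without KO 3, that of Gpihbp1 also without C 1, that of Cldn5 without C 1 or C 3 and that of Fabp4 without C 1, C 2 or C 3, with adjusted p up to 0.0863, 0.198, 0.221 and 0.289 over the settings tried. Relative to endothelial markers the calls of Gpihbp1, Fabp4 and Cldn5 ended, leaving 1 of 6 capillary markers lower. With quantile normalisation those of Fabp4 and Cldn5 ended. Without DKO 2, 5 of 6 capillary markers were lower, where 21.9% of all tested genes were called.

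Markers of other cell types also moved with the groups. Between KO and C 13.9% of all tested genes were called, 21.9% without DKO 2 and 2.29% relative to endothelial markers. The 7 markers of fast skeletal muscle, which ventricle should lack, were all lower in KO and in DKO than in C (7 of 7 called in each, but 2 of 7 between DKO and C without DKO 2); their summed signal was 62.7 to 432.8 in C, 0.676 and 1.16 in KO, and 3.54 to 13.6 in DKO. The summed signal of 8 cardiomyocyte markers was 54513 to 58179 in C, 33627 and 37861 in KO, and 33383 to 54901 in DKO, which places the tissue label in heart, and 1 of them, Tnni3, fell in KO; 4 fell without DKO 2, and with quantile normalisation 0 fell and 1 rose. Of 8 fibroblast markers the collagen genes Col1a1 (63.5 ± 7.53 in C, 243.7 ± 20.3 in KO) and Col3a1 rose in KO and were lower in DKO than in KO, while Dpt (-0.46), Pdgfra (-0.34) and Gsn (-0.34) had log2 changes below 0 between KO and C without a call. Over the 8 genes the median change was 0.48 between KO and C and -0.00041 between DKO and KO, and the list summed to 1069 to 1826 in C, 1524 and 2018 in KO, and 1265 to 3303 in DKO. Of 8 macrophage markers 1, C1qb, rose in KO (4 without DKO 2, 0 relative to endothelial markers), with summed signals of 212.7 to 228.4 in C, 292.0 and 310.2 in KO, and 222.9 to 296.2 in DKO. The part of capillary cells, skeletal muscle, cardiomyocytes, fibroblasts or macrophages in the values of Esm1, Apln and the other genes was not tested.

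Set against the mean of the 15 endothelial markers in each library, Esm1 was still higher in KO than in C, by 1.81 ± 0.37 (SE) (limma, adjusted p = 0.0029), and Apln by 1.29 ± 0.34 (SE) (limma, adjusted p = 0.0292), where 2.29% of all tested genes were called. In the same fit Esm1 and Apln were lower in DKO than in KO by -2.08 and -1.24 (limma, adjusted p = 0.000532 and 0.0361; 2.69% of genes called), and 0 of 9 were called between DKO and C (0.207% of genes). Tek, relative to the same markers, was 0.02, -0.32 and -0.32 in C, -0.62 and -0.59 in KO, and -0.22, -0.32 and -0.33 in DKO on the log2 scale. Both KO libraries were the lowest, but the difference of -0.40 from C did not pass (limma, adjusted p = 0.75).

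**Figure D5:**
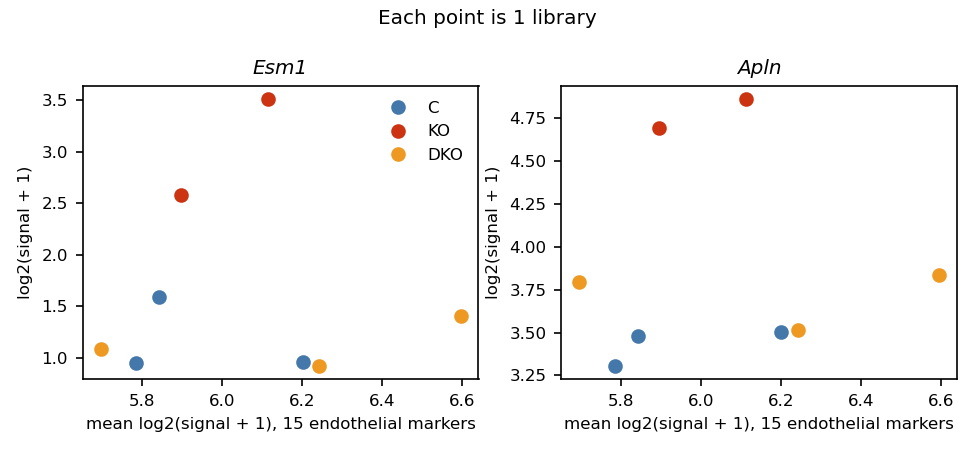
Log2(signal + 1) of Esm1 (left) and Apln (right) against the mean log2(signal + 1) of 15 endothelial markers, 1 point per library. The KO points lie above all others at marker means (5.90 and 6.11) inside the range of the rest (5.70 to 6.595).

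The genes most like each member over the 8 libraries, by Pearson correlation of log2(signal + 1), are given as a description, since all libraries share their scaling and the groups differ. Those of Apln were B4galt1 (0.990; signal 53.7 in C, 103.6 in KO and 59.1 in DKO) and Vezf1 (0.975). Those of Esm1 were Larp4 (0.984; 14.2 in C, 22.03 in KO and 13.9 in DKO) and Sacm1l (0.971). For the angiopoietins they were Mgst1 (0.9785) and Gstm2 (0.970) with Angpt1, and Ctdsp2 (0.885) and Fam219b (0.853) with Angpt2. For the Tie receptors they were Fabp5 (0.984) and Bst2 (0.967) with Tek, and N4bp3 (0.965) and Map3k11 (0.964) with Tie1. For the remaining receptor genes they were Pdgfb (0.940) and Cers2 (0.935) with Aplnr, Cyfip1 (0.958) and Cggbp1 (0.958) with Calcrl, and Nfkbia (0.954) and Ptpra (0.953) with Ramp2.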

How the data were processed

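Poly(A) RNA of 8 ventricle samples was fragmented, reverse transcribed from random hexamers and sequenced on a NovaSeq, per the labels' protocols. Cutadapt, RSEM 1.3.1, limma and GRCm38 appear, without roles, in the submitters' processing notes; the sources used here do not give the annotation or the strand setting. Each value of the deposited signal proved to be reads plus 0.5 divided by a scaled library size, and 100% of values gave whole reads within 0.001 reads. The floor of 3 reads equals a signal between 0.121 and 0.330, which covers counting error only.

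Genes reaching a signal of 1 in 2 or more libraries (13544) entered a limma 3.58.1 fit (R 4.3.3) of log2(signal + 1), with 3 group means over 8 libraries, 5 residual degrees of freedom, and a mean-variance trend, adjusted by Benjamini-Hochberg. edgeR 4.0.16 and DESeq2 1.42.0 on recovered reads, another pseudocount, no filter, quantile normalisation, centring on endothelial markers, pairwise fits, a replicate block and leaving out each library were alternatives. Scripts were tested on simulated reads. Named genes are the 9 members, up to 3 called genes per pathway list and comparison with the largest change (or the smallest p), the 2 genes most like each member among those at or above the median level (13.1), Vhl and Wt1. Members and lists were chosen with earlier results of these data known. Coordinates and lengths are from GENCODE M21 (GRCm38). Replicates differed by more than counting noise (chi-square per gene 13.6 to 253.0). No library pair was merged.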

Additional observations from a re-analysis of the deposited data

How the results depend on the processing

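Esm1 and Apln kept their direction and call between KO and C and between DKO and KO in all 16 alternatives. Some of these cannot move the change itself. Leaving out a library of the group not compared, fitting only the 2 groups or dropping the filter alters only its p. Esm1 ranged from 1.41 to 2.59 between KO and C and Apln from 1.27 to 1.44. In DKO versus C 0 members were called under any alternative. The count of all genes called between KO and C (1883) was 310 relative to endothelial markers, 3606 with only the 2 groups compared and 449 to 2966 with 1 library left out. For DKO versus C (21) it was 69 with DESeq2 and 4 to 90 with 1 library left out, and for DKO versus KO (1599) 365 relative to endothelial markers, 730 with only the 2 groups compared and 334 to 1991 with 1 library left out. A check of the numbers in the titles showed no clear pairing of libraries. It cannot exclude one, since the deviations of the 2 KO libraries mirror each other. Deviations of same-numbered libraries correlated at -0.274 to 0.2185, and 2 of 6 libraries of C and DKO correlated best with their own number. The replicate block gave 1794, 21 and 1269 calls; it changed no member's call and ended those of Dok2 (adjusted p = 0.0902) and Car4 (adjusted p = 0.0649) between DKO and KO, and Angpt2 between KO and C became -0.011.

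The changes that turned sign had no call, and the cause was not tested. With 1 library left out, between KO and C Angpt2 was -0.25 to 0.37 and Ramp2 -0.082 to 0.24. Between DKO and C the range was -0.086 to 0.54 for Angpt1, -0.042 to 0.41 for Tek, -0.012 to 0.32 for Tie1, -0.16 to 0.18 for Esm1, -0.019 to 0.42 for Aplnr, -0.40 to 0.0049 for Calcrl and -0.15 to 0.36 for Ramp2. For the log2(signal + 1) of Angpt2 minus that of Angpt1 the range was -0.28 to 0.37. Between DKO and KO it was -0.34 to 0.13 for Aplnr and -0.23 to 0.28 for Ramp2, for which edgeR gave 0.017. Relative to endothelial markers, which moves the median of all genes to -0.22 between DKO and C, Tek was -0.081, Tie1 -0.039, Aplnr -0.012 and Ramp2 -0.19. A fit without KO 1 or KO 3 leaves 1 KO library, assumed to vary like the other groups. At 15 to 32 reads in C, counting error limits the size of the Esm1 change.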

Other observations

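Of 7 arterial markers 1, the elastic fibre gene Fbln5, rose in KO (limma, adjusted p = 0.0121), and their summed signal was 101.3 to 141.3 in C, 186.9 and 203.8 in KO, and 87.9 to 177.7 in DKO. Venous markers (4 tested) had 0 calls and a summed signal of 66.6 to 115.7 in C, 111.8 and 132.7 in KO, and 92.4 to 213.7 in DKO. Lymphatic markers (6 tested) had 0 calls and 56.9 to 72.98 in C, 43.9 and 69.8 in KO, and 54.0 to 60.8 in DKO. Of 4 endocardial markers 1, the fenestral diaphragm gene Plvap, rose in KO (limma, adjusted p = 0.037), with a summed signal of 35.5 to 64.0 in C, 70.3 and 99.5 in KO, and 39.2 to 135.6 in DKO. Of 11 mural cell markers 1, the proteoglycan gene Cspg4, rose (limma, adjusted p = 0.00788), with 692.1 to 828.0 in C, 887.2 and 978.5 in KO, and 726.3 to 1073 in DKO. Beside these single calls, 13.9% of all tested genes were called between KO and C, 6.9% higher. In DKO versus C 0 genes of these 5 lists were called in limma or edgeR. An unadjusted p under 0.05 was reached by 5 and 7 of them, beside 1151 and 1122 of all 13544 tested genes. Without DKO 2, 3 of 7 arterial, 3 of 11 mural and 1 of 6 lymphatic markers rose in KO, where 21.9% of all tested genes were called. Relative to endothelial markers 0 mural markers rose, where 2.29% of all tested genes were called.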
